A study of Homo sapiens with 14 samples.

Results

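IFI6, IFI27, IFI35, IFI44, IFI44L and XAF1 are interferon-stimulated genes, and they were chosen by name from the 24461 named genes of the expression tables. All 6 were found in both tables. Their changes in these libraries were known when they were chosen, so their changes are given here as a description. The RNA-seq set holds 12 libraries from U251MG, an established human glioblastoma line labelled wild type, in 4 groups of 3: radioresistant cells, control cells, radioresistant cells with the hairpin shIFI16 and radioresistant cells with the hairpin shNC. Radioresistant cells had received X-rays in 30 daily fractions of 2 Gy, which makes 60 Gy, and both hairpin groups share that treatment. A further ATAC-seq library, which maps open chromatin, was made from radioresistant cells and another from control cells. A single hairpin against IFI16 is named and no rescue, so loss of IFI16 and an off-target effect of that hairpin cannot be told apart.

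Interferons are secreted proteins that bind receptors on the cell surface. The receptor-bound kinases JAK1 and TYK2 then activate transcription factors, which bind a sequence in the promoters of responding genes, the interferon-stimulated response element (ISRE). IFI16 senses DNA and signals through STING towards the induction of interferon beta. IFI6 and IFI27 are small hydrophobic relatives found at mitochondria, where IFI6 is linked to cell survival and IFI27 to sensitivity to death signals. XAF1 binds XIAP, an inhibitor of caspases, and counters it. IFI35 forms a complex with NMI, and IFI44 and IFI44L are related proteins encoded side by side that are linked to growth arrest and to the damping of interferon responses.

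The promoters of the 6 genes, which rose together in radioresistant cells, are shown where they hold the core of the ISRE. The core was searched as GAAANNGAAA on both strands in the RefSeq promoters, which run from 250 bases before to 50 after each start site (build GRCh38.p14). It was found in 4 of the 6 genes (IFI6, IFI27, IFI44 and IFI44L) and in 4.38% of all 27305 genes (3.57% of 35116 promoters). In the stretches below the capitals mark the core. For IFI35 and XAF1 they mark places with 1 of the 8 fixed letters off, a looser match that 37.7% of all genes and 33.0% of all promoters held.
IFI6, chr1:27672261-27672363, minus strand: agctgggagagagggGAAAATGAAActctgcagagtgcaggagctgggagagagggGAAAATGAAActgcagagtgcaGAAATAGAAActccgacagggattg
IFI27, chr14:94110613-94110665, plus strand: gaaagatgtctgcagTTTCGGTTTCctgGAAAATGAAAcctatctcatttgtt
IFI44, chr1:78649756-78649795, plus strand: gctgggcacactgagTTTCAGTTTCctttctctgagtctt
IFI44L, chr1:78620269-78620399, plus strand: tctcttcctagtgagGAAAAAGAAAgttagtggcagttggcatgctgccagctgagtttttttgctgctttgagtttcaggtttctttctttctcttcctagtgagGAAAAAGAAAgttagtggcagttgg
IFI35, chr17:43006752-43006797, plus strand: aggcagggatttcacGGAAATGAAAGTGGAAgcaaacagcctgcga
XAF1, chr17:6756000-6756039, plus strand: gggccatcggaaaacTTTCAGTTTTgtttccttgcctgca

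IFI6 held 3 copies of the core and IFI27 held 2, 1 on each strand. In IFI6 the first 2 copies lay 41 bases apart inside an identical run of 29 bases. In IFI44L the 2 copies lay 91 bases apart inside an identical run of 85 bases, so that a whole block of this promoter was repeated. IFI44 held 1 copy, on the strand opposite to the gene. The GAS core, TTCNNNGAA, a sequence first known from genes that respond to interferon gamma, was found in 2 of the 6 genes, IFI27 and IFI35, and in 9.38% of all genes (7.66% of promoters). In IFI27 it overlapped both ISRE cores. Of the other interferon-stimulated genes listed for comparison, 42 of 53 matched a promoter by symbol, and 31 of those 42 held the ISRE core. A match describes these letters and not a bound site.

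**Figure D1:**
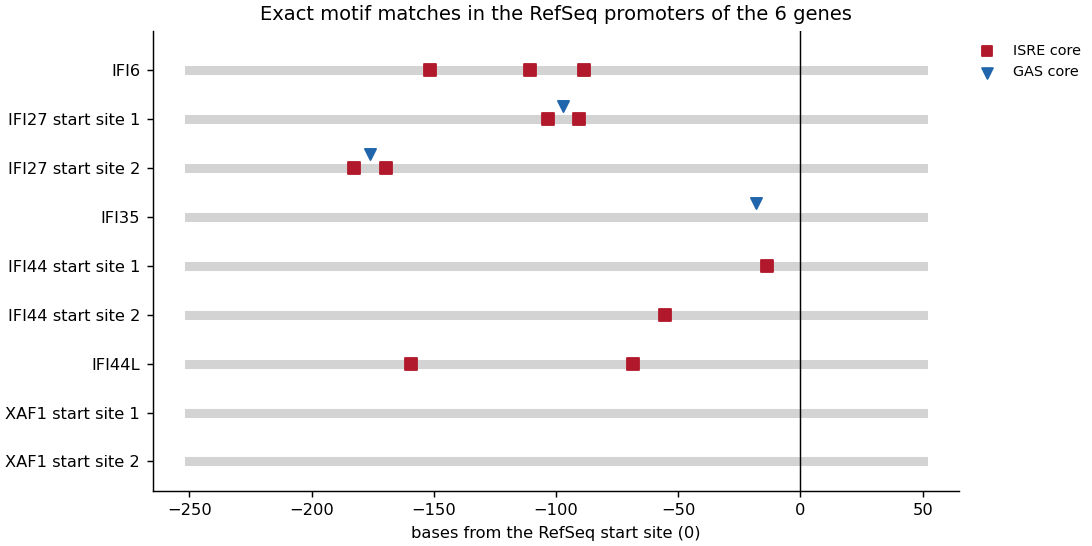
Position of exact matches to the ISRE core (squares) and the GAS core (triangles) in the RefSeq promoters of the 6 genes, 1 line per start site, in bases from that start site. IFI6 has 3 squares, IFI27 has 2 and IFI44L has 2, while IFI35 has a triangle only and the lines of XAF1 are empty.

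Expression was given in TPM (a transcript's share of its library, corrected for transcript length), and each library summed to 1000000, so the number of reads behind a value is unknown. Between 12361 and 13016 genes reached 1 TPM in a library. The columns carry codes and their groups were inferred from the names of the tables and of the ATAC-seq files, which no gene can check for the radioresistant and control columns. Of 7 astrocytic and glioma markers, 6 reached 1 TPM in every radioresistant, shIFI16 and shNC library and 7 in every control library, while S100B was the marker under 1 TPM outside control cells. Of 5 immune markers CD3E and MS4A1 were listed at 0 throughout and PTPRC had at most 0.0864 TPM. CD14 was too low to test and averaged 1.45 TPM in radioresistant and 0.737 TPM in control cells, without overlap. It averaged 0.455 TPM in shIFI16 and 0.176 TPM in shNC cells. CD68 averaged 20.3 TPM in radioresistant, 17.3 TPM in control, 15.6 TPM in shIFI16 and 38.5 TPM in shNC cells and passed as lower after knockdown (-1.25). The summed level of the 7 ran from 6592 to 7169 TPM in radioresistant, 15077 to 15322 TPM in control, 5493 to 6416 TPM in shIFI16 and 7359.5 to 7978 TPM in shNC libraries, and most of it was VIM. All 7 passed as lower in radioresistant cells, but S100B passed the low-value filter through the control group, which fixed its direction. GFAP, the astrocyte filament gene, averaged 80.6 TPM in radioresistant and 4011 TPM in control cells (log2 change -5.66). After knockdown 3 of 6 tested passed as higher, GFAP (3.56), FABP7 (0.45) and SOX2 (0.17), and 2 as lower, VIM (-0.49) and NES (-0.38). Single markers of other cell types also changed, with CDH5 (endothelial) at -2.37 and SYT1 (neuronal) at -0.89 in radioresistant cells. CDH5 was under 1 TPM in every radioresistant library, so the filter fixed its direction there. After knockdown CDH5 was at 1.28, KRT18 (epithelial) at 0.65 and SYT1 at -0.72. The part of these markers in the results was not tested. Replicates are not said to come from separate cultures, so a p-value measures only how far these libraries spread, and that spread may be technical. In bulk RNA, more cells with a transcript and more transcript per cell cannot be told apart.

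In radioresistant cells all 6 genes stood above control cells in every library, from 7.08-fold higher mean TPM for IFI44 to 26.3-fold for IFI6 and beyond that for XAF1, which was close to absent in control cells. The fitted log2 changes of log2(TPM + 1) ran from 2.85 to 5.21 with a median of 4.15, against a median of -0.11 over the 13127 genes tested. All 6 passed limma's test with an adjusted p under 0.05. Among all genes tested 16.9% passed as higher and 27.0% as lower. The genes were chosen with this contrast known, so nothing is read from that count.

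IFI6, the mitochondrial survival protein, stood at 11925, 8914 and 8751 TPM in radioresistant libraries and at 387, 377 and 361 TPM in control libraries. The groups lay far apart, with a log2 change of 4.70 (SE 0.131). IFI6 ranked 2 or 3 among all genes in the radioresistant libraries and took 0.986% of the TPM total, against 0.0375% in control libraries. Genes of the mitochondrial genome (names starting with MT-) held no TPM in any library, so ranks and shares leave them out. IFI27, its relative linked to death signals, stood at 5575, 3950 and 4258 TPM in radioresistant libraries and at 235, 249 and 261 TPM in control libraries. Its log2 change was 4.19 (SE 0.135), and it ranked between 10 and 15 among the genes of the radioresistant libraries. For both genes radioresistant replicate 1 was the highest library.

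XAF1, the XIAP antagonist, stood at 44.0, 56.1 and 32.8 TPM in radioresistant libraries and at 0.231, 0.296 and 0.0854 TPM in control libraries. The groups did not overlap. With all control libraries under 1 TPM, XAF1 passed the low-value filter through the radioresistant group, which fixed its direction. Its log2 change of 5.21 (SE 0.192) depends on the constant added before the logarithm and was 7.23 with 0.1 TPM in place of 1 TPM.

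IFI44 stood at 569, 625 and 498 TPM in radioresistant libraries and at 99.7, 86.5 and 52.9 TPM in control libraries, a log2 change of 2.85 (SE 0.208). Its neighbour IFI44L stood at 247, 288 and 222 TPM in radioresistant libraries and at 17.5, 16.4 and 8.68 TPM in control libraries, a log2 change of 4.11 (SE 0.228). Control replicate 3 was the lowest library for both neighbours, and without it their log2 changes 2.58 (IFI44) and 3.81 (IFI44L). IFI35, the partner of NMI, stood at 393, 323 and 298 TPM in radioresistant libraries and at 31.4, 35.1 and 45.8 TPM in control libraries, a log2 change of 3.15 (SE 0.155). For IFI35 control replicate 3 was the highest control library. In each of these 3 genes every radioresistant library lay above every control library.

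**Figure D2:**
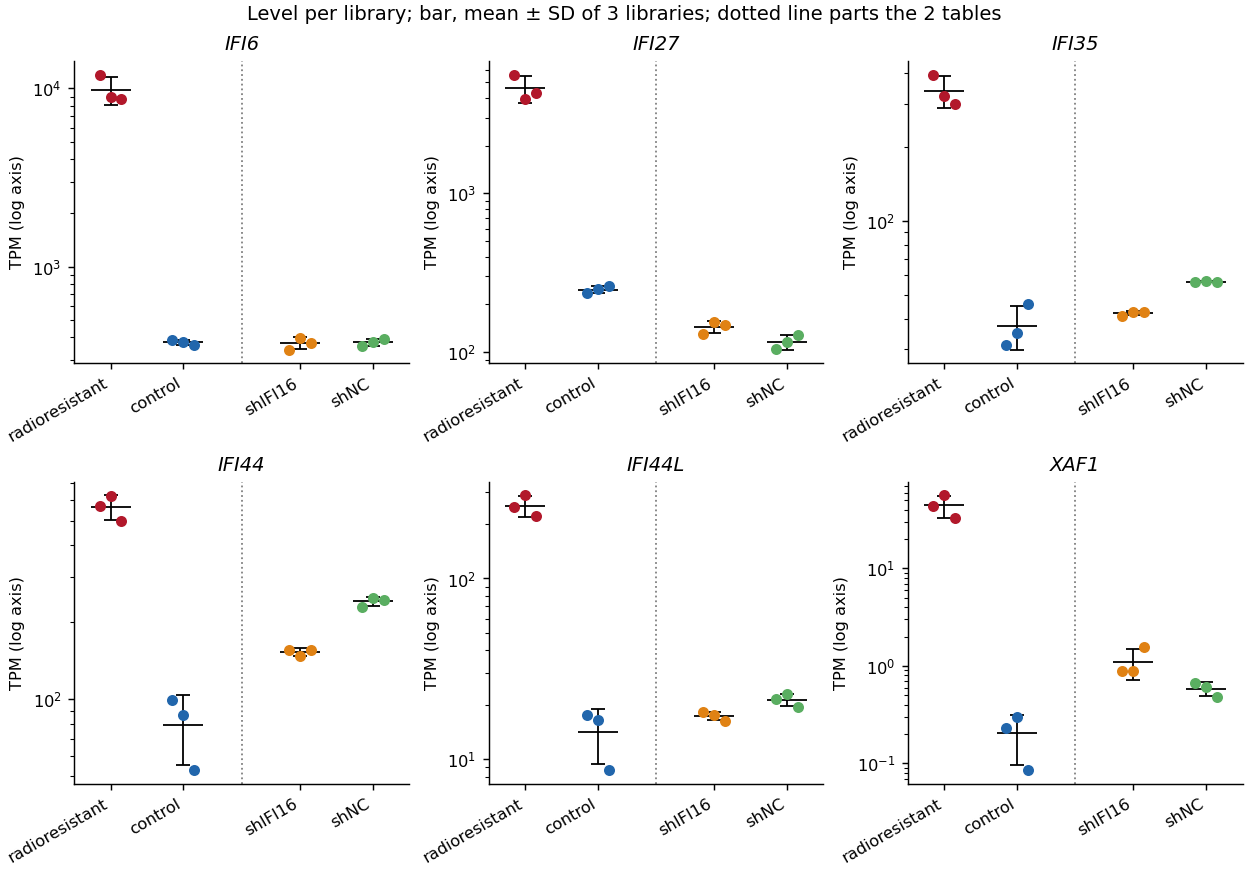
TPM of each gene in every library on a log axis, for radioresistant, control, shIFI16 and shNC cells, with points for libraries and bars for the mean ± SD of 3. The radioresistant points lie highest in all 6 panels, and right of the dotted line, in a separately normalized table, the shNC points lie nearer to control than to radioresistant points except for IFI44.

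Levels in TPM kept 1 order in radioresistant and in control cells, with IFI6 highest, followed by IFI27, IFI44, IFI35, IFI44L and XAF1, and no neighbours in that order overlapped between libraries. In both hairpin groups IFI44 stood above IFI27, with ranges that overlapped in shIFI16 cells (147 to 156 TPM for IFI44 and 131 to 154 TPM for IFI27) and did not in shNC cells. The balance within the related pairs also moved. The log2 difference of IFI44L minus IFI44, each as log2(TPM + 1), averaged -1.16 ± 0.0438 in radioresistant and -2.42 ± 0.0760 in control cells (SD, n = 3 each), and -3.07 ± 0.0907 in shIFI16 and -3.44 ± 0.123 in shNC cells. IFI44L thus came closest to its neighbour in radioresistant cells. For IFI27 minus IFI6 the means were -1.10 ± 0.0676 in radioresistant and -0.59 ± 0.124 in control cells, and -1.36 ± 0.0342 in shIFI16 and -1.69 ± 0.0818 in shNC cells. These differences are a description, given without a test.

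After knockdown of IFI16 in radioresistant cells the 6 genes did not move together: IFI44, IFI35 and IFI44L fell, IFI27 rose, IFI6 did not pass the test and XAF1 was too low to test. IFI16 itself stood at 7.68, 7.90 and 6.71 TPM in shIFI16 libraries and at 125, 139.6 and 127 TPM in shNC libraries, 17.6-fold lower in mean TPM, as the hairpin's label says. Of the 5 tested members 3 passed as lower, where 16.3% of the 12567 genes tested passed as lower, and 1 passed as higher, where 16.6% did. The adjusted p-values below are limma's over all genes tested. They set the size of a change against the spread between libraries and are no independent support, as the genes were chosen with earlier results known.

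IFI44 stood at 156, 147 and 155 TPM in shIFI16 libraries and at 229.7, 249.5 and 245 TPM in shNC libraries. It fell by 0.65 on the log2 scale (SE 0.0610, adjusted p = 7.6e-07), the largest fall among the members, without overlap of the groups. IFI35 stood at 41.2, 42.6 and 42.5 TPM in shIFI16 libraries and at 56.5, 57.0 and 56.4 TPM in shNC libraries. It fell by 0.42 (SE 0.0720, adjusted p = 3.4e-04), again with all shIFI16 libraries below all shNC libraries, and the SD was 1.87% of the mean in shIFI16 cells and 0.615% in shNC cells. IFI44L stood at 18.1, 17.5 and 16.3 TPM in shIFI16 libraries and at 21.6, 22.8 and 19.5 TPM in shNC libraries, also without overlap. Its fall of 0.28 (SE 0.0954, adjusted p = 0.032) was less secure. It missed the threshold without shNC replicate 1 (0.087), shNC replicate 2 (0.14), shIFI16 replicate 2 (0.086) or shIFI16 replicate 3 (0.077) and without the low-value filter (0.054), within a range of 0.0051 to 0.14 over 11 alternatives.

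IFI27 stood at 131, 154 and 149.5 TPM in shIFI16 libraries and at 104, 116 and 129 TPM in shNC libraries. Every shIFI16 library lay above every shNC library, and IFI27 rose by 0.32 (SE 0.0827, adjusted p = 0.0085). That call ended with median-ratio scaling (0.072) and without the low-value filter (0.053), within a range of 1.9e-04 to 0.072 over 11 alternatives. IFI6 stood at 342, 399 and 374 TPM in shIFI16 libraries and at 358, 377 and 393 TPM in shNC libraries. The groups overlapped, and its log2 change was -0.02 (adjusted p = 0.87) with a 95% interval of -0.16 to 0.12. XAF1 stood at 0.877, 0.893 and 1.55 TPM in shIFI16 libraries and at 0.669, 0.608 and 0.477 TPM in shNC libraries. These values did not overlap but lay around or under 1 TPM. Without the filter its log2 change was 0.40 (SE 0.141, adjusted p = 0.093).

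**Figure D3:**
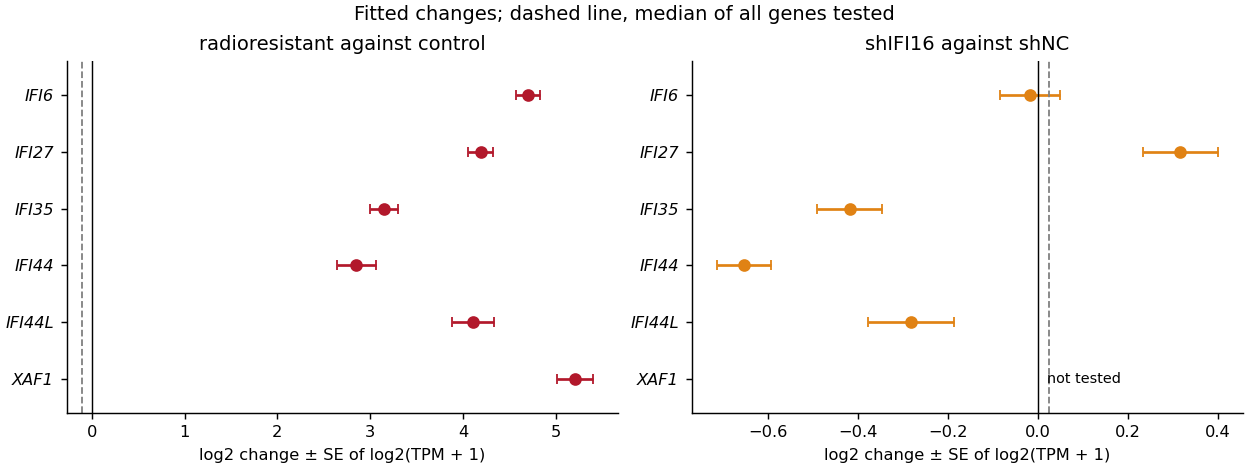
Fitted log2 change ± SE of each gene in radioresistant against control cells (left) and in shIFI16 against shNC cells (right), with a dashed line at the median of all genes tested and axes of different scale. On the left all 6 points lie at or above 2.85, and on the right they lie between -0.65 and 0.32 with XAF1 not tested.

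The hairpin groups carry the label radioresistant, yet the members' levels in them were far from those of radioresistant cells without a hairpin. The tables were normalized separately, so these levels stand side by side without a test. IFI6 averaged 376 ± 17.7 TPM in shNC cells, 9864 ± 1788 TPM in radioresistant cells and 375 ± 12.9 TPM in control cells (SD, n = 3 each). IFI27 averaged 116 ± 12.1 TPM in shNC cells, 4594 ± 863 TPM in radioresistant cells and 248 ± 13.0 TPM in control cells, so that shNC cells stood below both. XAF1 averaged 0.585 ± 0.0981 TPM in shNC cells, 44.3 ± 11.7 TPM in radioresistant cells and 0.204 ± 0.108 TPM in control cells. These 3 genes, linked to mitochondria or to XIAP, were each close to the control level, below it or under 1 TPM in shNC cells.

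IFI44 averaged 241 ± 10.4 TPM in shNC cells, 564 ± 63.3 TPM in radioresistant cells and 79.7 ± 24.1 TPM in control cells, between both. IFI35 averaged 56.6 ± 0.348 TPM in shNC cells, 338 ± 49.1 TPM in radioresistant cells and 37.4 ± 7.47 TPM in control cells. IFI44L averaged 21.3 ± 1.67 TPM in shNC cells, 253 ± 33.5 TPM in radioresistant cells and 14.2 ± 4.78 TPM in control cells. As log2(mean TPM + 1), shNC minus radioresistant lay between -5.29 (IFI27) and -1.22 (IFI44) for the members, and its median was -0.17 over 12359 genes, 8.10% of which lay under -1. Over 48 other interferon-stimulated genes the median was -2.18, and 37 of them lay under -1. Some of the 48 stood higher in shNC than in radioresistant cells, such as ISG20 with means of 20.3 and 6.17 TPM. Hairpin, selection, time in culture and table cannot be told apart here.

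The other interferon-stimulated genes moved with the members in radioresistant cells. Of a list of 53, 48 were tested. The direction of MX2, RSAD2 and CMPK2 was fixed by the filter, since no control library reached 1 TPM for them. The other 45 all passed as higher, where 16.9% of all genes tested did, with a median log2 change of 2.69. They include ISG20 (0.924, 0.534 and 1.68 TPM in control libraries) and RTP4 (0.526, 1.06 and 0.619 TPM). These also passed the filter only with the help of radioresistant libraries, which favours that direction. With 1 TPM added, the largest changes were those of LY6E (6.85), a membrane-anchored protein, RSAD2 (6.63), the antiviral enzyme viperin, and OAS2 (6.48), which makes the 2-5A messenger. By the ratio of mean TPM the order differed, with RSAD2 (611-fold), CMPK2 (239.9-fold) and MX2 (142-fold) above LY6E (123-fold) and OAS2 (109.7-fold). The smallest were those of PARP14 (0.49), PARP9 (0.88), both ADP-ribosyltransferase family genes, and LGALS3BP (1.19), a secreted glycoprotein. After knockdown 29 of 50 tested genes of the list fell and 5 rose, where 16.3% and 16.6% of all genes tested did. The median was -0.47 against 0.02 over all genes tested. The exonuclease gene ISG20 (-1.46), the chemokine gene CXCL11 (-1.38) and SAMD9L (-1.18) fell most. The 5 rises, of which IFITM3 and TRIM22 were named after their values were seen, were those of MX1 (1.25), an antiviral GTPase, IFITM1 (1.24), IFITM2 (1.19) and IFITM3 (0.27), which block viral entry, and TRIM22 (0.38). IFI44, IFI35 and IFI44L thus lay on the side of the falls, and IFI27 on the side of the 5 rises. IFITM genes are close copies of each other, and their values are uncertain. MX1 stood at 1.44, 0.882 and 0.768 TPM in shNC libraries and at 4.18, 3.25 and 3.91 TPM in shIFI16 libraries. It passed the filter only with the help of shIFI16 libraries, which favours a rise.

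**Figure D4:**
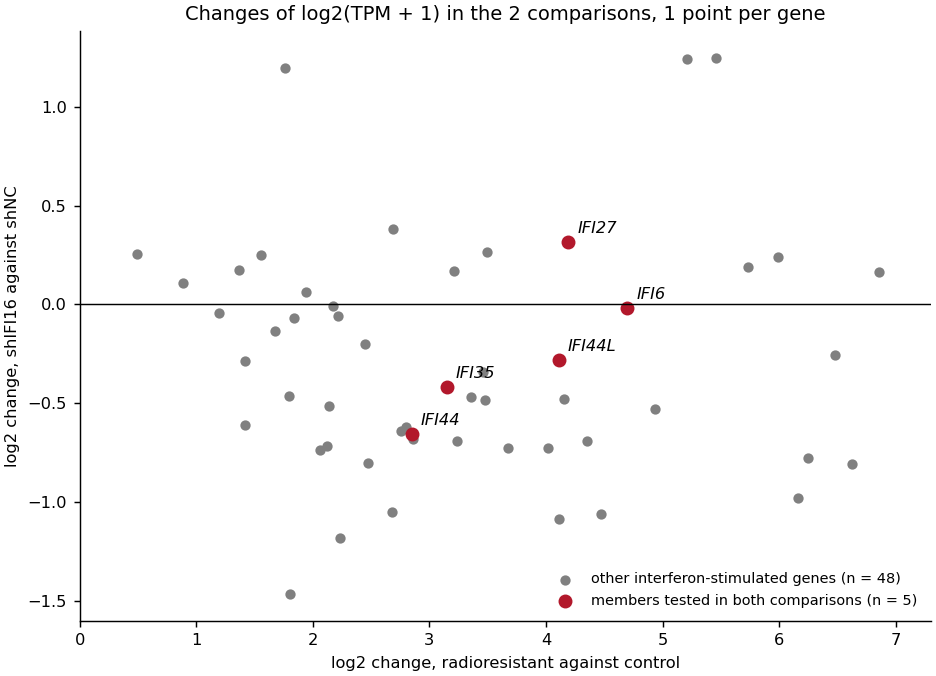
Log2 change of log2(TPM + 1) in radioresistant against control cells (horizontal) and in shIFI16 against shNC cells (vertical), 1 point per gene, for 5 members tested in both comparisons and 48 other interferon-stimulated genes. All points lie right of 0, and the members spread from IFI44 at -0.65 to IFI27 at 0.32 on the vertical axis.

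Of the genes that carry the interferon signal, 11 were tested in radioresistant against control cells. The direction of IFNB1 was fixed by the filter, since no control library reached 1 TPM for it. Of the other 10, 5 passed as higher in radioresistant cells and 2 as lower. Over all genes tested the shares were 16.9% and 27.0%. Among the rises were those of IRF9 (1.34) and STAT2 (0.79), which act together at the ISRE, and those of the transcription factor gene IRF1 (1.23) and the feedback inhibitor gene SOCS1 (1.28). SOCS1 (0.663, 2.17 and 2.08 TPM in control libraries) passed the filter only with the help of radioresistant libraries, which favours that direction. The receptor genes IFNAR1 (-0.58) and IFNAR2 (-0.60) fell. The count of signalling genes that passed as lower was 0 without control replicate 2 or without radioresistant replicate 3, and 1 without control replicate 1 or without radioresistant replicate 1. JAK1 (-0.06), TYK2 (-0.23) and the inhibitor SOCS3 (0.27) did not pass. IFNB1, which encodes interferon beta, stood at 3.07, 4.28 and 4.34 TPM in radioresistant libraries and at 0.678 TPM in control replicate 1, and it was listed at 0 in control replicates 2 and 3. It passed the filter through the radioresistant group, which fixed its direction, and its log2 change was 2.03.

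After knockdown 6 of 12 tested signalling genes passed as lower and 1 as higher, where 16.3% and 16.6% of all genes tested did. IFNB1 stood at 12.4, 13.5 and 11.9 TPM in shIFI16 libraries and at 29.8, 33.5 and 33.7 TPM in shNC libraries and fell by 1.30 (SE 0.0945, adjusted p = 4.7e-08). Interferon beta thus stood higher in TPM in shNC cells than in radioresistant cells without a hairpin, while all 6 members stood lower there. These levels come from separate tables. IFNL1, which encodes interferon lambda 1, changed by -1.86 (SE 0.426, adjusted p = 0.032). It stood at 4.28, 2.97 and 0.941 TPM in shIFI16 libraries and at 9.30, 13.2 and 12.3 TPM in shNC libraries. It passed the filter only with the help of shNC libraries, which favours a fall. IRF1 changed by -0.67, TYK2 by -0.45, STAT2 by -0.27 and IRF9 by -0.27, and SOCS3 rose by 0.78. SOCS1 (-0.11), JAK1 (0.07), IFNAR1 (0.01) and IFNAR2 (0.15) did not pass. Without shNC replicate 1 or without shNC replicate 2, 3 genes passed as lower instead of 6.

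Of 10 relatives and binding partners of the members, 3 passed as higher in radioresistant cells and 0 as lower. Over all genes tested the shares were 16.9% and 27.0%. NMI, the partner of IFI35, rose by 1.70, FKBP5, a chaperone reported to bind IFI44L, by 1.05, and the caspase-inhibitor family gene BIRC3 by 0.92. IFI27L1 (-0.05) and IFI27L2 (-0.36), the relatives that flank IFI27 on chromosome 14, did not pass, and their radioresistant and control libraries overlapped. IFI27L1 stood at 37.0, 13.1 and 25.8 TPM in radioresistant libraries and at 28.5, 19.0 and 26.2 TPM in control libraries, unlike IFI27 next to it. XIAP, the target of XAF1, stood at 33.5, 37.4 and 33.5 TPM in radioresistant libraries and at 46.5, 43.2 and 37.8 TPM in control libraries (log2 change -0.28, adjusted p = 0.092). BIRC2 (0.16), BIRC5 (0.07), NR4A1 (0.37) and the chaperone gene HSPA5 (-0.20) did not pass either. Without control replicate 3, 2 of the 10 genes passed as lower.

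After knockdown 4 of these 10 genes passed as lower and 1 as higher, where 16.3% and 16.6% of all genes tested did. IFI27L2 fell by 0.98, BIRC3 by 0.87, IFI27L1 by 0.58 and NMI by 0.46, while FKBP5 rose by 0.72. IFI27 rose between both of its falling neighbours, with IFI27L2 at 62.2, 61.4 and 68.4 TPM in shIFI16 libraries and at 119, 138 and 125 TPM in shNC libraries. NMI moved the same way as IFI35 in both comparisons, whereas FKBP5 and IFI44L moved in opposite directions after knockdown. XIAP (-0.01), BIRC2 (-0.07), BIRC5 (0.03), NR4A1 (-0.30) and HSPA5 (0.15) did not pass.

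Genes of mitochondrial survival and death, in whose pathway IFI6, IFI27 and XAF1 are placed, changed in both directions. In radioresistant cells 9 of 22 passed as higher and 2 as lower, where 16.9% and 27.0% of all genes tested did. Their median log2 change was 0.28. The pore-forming gene BAK1 (1.14), PMAIP1 (1.08), which encodes the death activator NOXA, and the cytochrome c gene CYCS (0.97) rose most, and AIFM1 (-0.68) and CASP9 (-0.61), the initiator caspase of this pathway, fell. After knockdown 7 passed as higher and 4 as lower, where 16.6% and 16.3% of all genes tested did, with a median of 0.01. Nothing is read from these counts. The rises of BCL2L11 (0.54), BID (0.46) and BCL2L2 (0.41) and the falls of PMAIP1 (-0.94), BCL2L1 (-0.45) and MCL1 (-0.23) were the largest. BCL2L1 and MCL1 encode survival proteins, and BCL2L11 and BID encode activators of death. Without shNC replicate 3, shIFI16 replicate 1 or shIFI16 replicate 2, 4 genes passed as higher instead of 7.

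The members' patterns over all libraries were set beside those of every gene tested in both comparisons. Likeness was Pearson's r of log2(TPM + 1) over the 12 libraries after each table was centred on its own mean, and it is set mainly by the difference between the untransduced groups. IFI6 was most like LY6E (0.998), BST2 (0.997), a protein that tethers virus particles, and IFI27 (0.996). IFI27 was most like BST2 (0.998), IFITM3 (0.997) and LY6E (0.996). Among their neighbours in pattern, log2 changes after knockdown were 0.16 for LY6E, 0.17 for BST2 and 0.27 for IFITM3. LY6E and BST2 did not pass. The hairpin libraries took part in the choice of all these neighbours, so nothing is read from their changes after knockdown. IFI44 was most like the RNA sensor gene IFIH1 (0.997), SP100 (0.995) and IFIT1 (0.995), with changes of -0.62, -0.29 and -0.72 after knockdown. IFI35 was most like ISG15 (0.994), a ubiquitin-like modifier, the antigen-presentation gene HLA-B (0.993) and SLCO4A1 (0.993), a transporter. The changes of these 3 after knockdown were -0.53, -1.10 and -0.44. For IFI44L, OAS2 (0.998) and SP110 (0.997) were among the 3 most alike, with changes of -0.25 and -0.06 that did not pass. XAF1 was most like IFITM3 (0.995), OAS1 (0.994) and the aminopeptidase gene LAP3 (0.993), with changes of 0.27, 0.24 and 0.11. Between members r ran from 0.929 (IFI27 with IFI44) to 0.996 (IFI6 with IFI27).

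Open chromatin was summarized as 12877 summits of ATAC-seq peaks in radioresistant cells and 2454 in control cells, from 1 library each, so no test was possible. No start site of the 6 genes had a summit within 1 kb in either library. Among all 27305 genes 19.1% had such a summit in radioresistant cells and 3.57% in control cells, so nothing is read from 0 of 6. The nearest summits of IFI27, IFI35 and IFI6 in radioresistant cells lay 4431, 8532 and 13166 bases from a start site. Over all genes the median distance was 45257 bases in radioresistant and 343950 bases in control cells, where the list of summits was shorter, so distances are not compared between the libraries. The summit near IFI27, at position 94115246 of chromosome 14 (hg38), lay inside the span of the gene (94105894 to 94116690), with a -log10 q-value of 3.45 as given by the authors. For IFI44, IFI44L and XAF1 the nearest summit lay at least 75939 bases away in both libraries. Of the other interferon-stimulated genes, 9 of 42 (21.4%) had a summit within 1 kb in radioresistant cells and 0 of 42 in control cells.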

How the data were processed

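The authors deposited RNA-seq values as TPM for 12 libraries in 2 tables that are named as counts; each library sums to 1000000. The authors deposited ATAC-seq summits with a score read as the -log10 q-value of MACS2. Per the submitters' processing notes, the tools were Trim Galore 0.6.6, TopHat, Cufflinks 2.2.1, featureCounts, Bowtie2 2.2.5, SAMtools 1.10 and MACS2 2.1.4, on build hg38. The tool that gave the TPM values, the gene annotation and strand handling: not given in the sources used here.

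The 28 entries whose names had turned into dates (0.115 to 0.190% of the TPM total) were left out of all tests. Genes with at least 1 TPM in 3 of the 6 libraries of a table were tested on log2(TPM + 1) with limma 3.58.1 (R 4.3.3; trend and robust), each table alone, without a replicate block. Adjusted p-values are Benjamini-Hochberg over all genes tested, with a threshold of 0.05. The added constant understates changes of low genes. The limma fit was tested on simulated data. The other steps, in Python 3.11.15, were not.

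The members and the gene lists were chosen with earlier results of these data known. The text names every member, IFI16, every tested signalling gene and partner, the 3 largest rises and falls past the threshold among mitochondrial genes, the 3 largest and smallest changes among other interferon-stimulated genes, and for each member the 3 genes most like it; 1 gene that this rule names is not reported here. Replicate numbers were checked for pairing: deviations of libraries with the same number correlated at -0.38, 0.24 and 0.08 between radioresistant and control cells and at 0.22, 0.09 and 0.03 between shIFI16 and shNC cells, so the numbers were not taken to pair libraries. The median log2 change of all genes was -0.11 in radioresistant cells as deposited, with 2220 genes higher and 3542 lower; with median-ratio scaling the median was 0.01, with 2954 higher and 2960 lower. RefSeq promoters were matched by symbol for all 6 members. Protein sequences were not used here.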

Additional observations from a re-analysis of the deposited data

How the results depend on the processing

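Every member kept its direction and call in radioresistant cells under all 11 alternatives (filter, pseudocount, scaling, replicate block and each library left out), with XAF1 between 5.02 and 7.23. After knockdown IFI35 and IFI44 kept theirs. IFI27 was 0.32 without the low-value filter and 0.30 with median-ratio scaling, both short of the threshold, so that 0 members passed as higher there. IFI44L was -0.28 without the filter and -0.34 to -0.23 with 1 library left out. IFI6 changed sign without shNC replicate 3 (0.015) and without shIFI16 replicate 1 (0.040), within -0.070 to 0.040 with 1 library left out.

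With the replicate block, calls went to 3001 higher and 2609 lower after knockdown, against 2088 and 2052 without it, and to 2110 and 3462 in radioresistant cells; the block gave 9 higher other interferon-stimulated genes and 2 higher partners after knockdown and changed no member's call. Without the filter, 1 other interferon-stimulated gene passed as lower in radioresistant cells and 4 mitochondrial genes as higher after knockdown. Quantile normalization gave 2 higher partners. With 1 library left out, lower signalling genes ran from 0 to 2 and lower partners from 0 to 2 in radioresistant cells. After knockdown lower signalling genes ran from 3 to 6, higher partners from 1 to 2 and higher mitochondrial genes from 4 to 7. A window of 5 kb gave 1 of 6 members with a summit in radioresistant cells, where 23.1% of all genes had one, and 1 of 42 other interferon-stimulated genes in control cells, where 4.29% had one. A score of at least 10 left 0 other interferon-stimulated genes in radioresistant cells, where 1.13% of all genes had a summit. The causes were not tested. Depth is unknown, so no counting error can be given for values near 1 TPM, as for XAF1 outside radioresistant cells.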
